A study of Mus musculus with 24 samples.

Results

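The genes described here are those of the mouse histone clusters, taken as every gene whose symbol in the platform annotation is that of an H1 linker histone or of a numbered H2A, H2B, H3 or H4 cluster gene (H1f, H2ac, H2bc, H3c or H4c followed by a number). The rule found 57 genes among the 19505 measured, 57 probe sets in all: 8 H1, 13 H2A, 15 H2B, 10 H3 and 11 H4 genes. RNA of whole lungs had been hybridised to Affymetrix arrays when the mice were 6 months old. The study compared wild-type mice with a mouse model of Marfan syndrome, a heritable disease of elastic connective tissue. Both genotypes received either vehicle or sildenafil, which inhibits phosphodiesterase 5, the enzyme that breaks down cyclic GMP. The drug was taken with drinking water, starting when the animals were 6 weeks old. The arrays with values numbered 6 for wild-type vehicle (arrays 13 to 18), 4 for wild-type sildenafil (1, 4, 5 and 6), 5 for Marfan vehicle (20 to 24) and 5 for Marfan sildenafil (8 to 12). The labels used here do not name the Marfan allele, the background strain or the sex. The normalized log2 mean of 3 Y-linked genes was 2.62 to 3.15 on arrays 5, 8, 13, 14, 20 and 21. It was 7.31 to 7.85 on all other arrays, so each group appears to hold both sexes. Nothing states that each array is a separate animal, so p-values reflect sample-to-sample spread, which may be partly technical. The array numbers follow the groups, with sildenafil on 1 to 12 and vehicle on 13 to 24, so treatment and any batch by array order cannot be told apart.

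Histones are the proteins around which DNA is wound. Pairs of H2A, H2B, H3 and H4 build the nucleosome core, and H1 binds the DNA between cores. Most of their genes lie in clusters, have no introns and are transcribed mainly while DNA is copied. The mRNAs of these replication-dependent genes end in a stem-loop in place of a poly(A) tail, which is bound by the stem-loop binding protein, and they are degraded when DNA synthesis stops. Most cells of an adult lung do not divide. In whole tissue, a lower value from fewer cells that make a transcript and from less transcript per cell cannot be told apart.

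Of the 57 genes, 46 lie on chromosome 13 and 8 on chromosome 3, the major and a smaller cluster, by the RefSeq annotation. The other 3 carry H1 symbols but lie elsewhere: H1f7 on chromosome 15, and H1f8 and H1f10 on chromosome 6. H1f7 (a testis histone) and H1f8 (an oocyte histone) are germ-line forms and H1f10 is a replication-independent linker histone, so the name clustered histone genes fits 54 of the 57 by position. Chromosome 13 held 5 H1, 11 H2A, 13 H2B, 7 H3 and 10 H4 genes, and chromosome 3 held 2 H2A, 2 H2B, 3 H3 and 1 H4 gene.

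Promoters are shown because promoter elements differ between the classes. Whether they bear on differences between lungs was not tested. The RefSeq promoter table (GRCm38.p6) held 52 of the 57 genes, with 300 bases each, 250 of them before the annotated start. Each line below gives 130 bases, 110 before the start and 20 from it onwards, 5′ to 3′ on the gene's strand, for 5 of the 7 H4 genes with the smallest p-values for averaged sildenafil (H4c14 has no entry and H4c2 is not printed), for H2bc18 and H1f2 of other classes, and for H2ac13 with its divergent neighbour H2bc13. Capitals mark every match, on either strand, to GGTCCG (the core of the H4 site II element), CCAAT, the octamer ATTTGCAT, TATAAA and AAACACA (the H1 box).
H4c8, chr13:23530934-23531063, plus strand: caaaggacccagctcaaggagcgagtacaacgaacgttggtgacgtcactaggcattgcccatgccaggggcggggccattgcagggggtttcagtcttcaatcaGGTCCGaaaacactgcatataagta
H4c11, chr13:21734924-21735053, plus strand: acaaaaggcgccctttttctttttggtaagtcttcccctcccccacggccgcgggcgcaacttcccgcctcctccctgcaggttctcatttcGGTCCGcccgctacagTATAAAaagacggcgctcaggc
H4c3, chr13:23698439-23698568, minus strand: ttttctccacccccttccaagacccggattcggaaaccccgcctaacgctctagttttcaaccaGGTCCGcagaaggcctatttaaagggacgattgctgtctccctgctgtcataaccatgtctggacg
H4c4, chr13:23581458-23581587, plus strand: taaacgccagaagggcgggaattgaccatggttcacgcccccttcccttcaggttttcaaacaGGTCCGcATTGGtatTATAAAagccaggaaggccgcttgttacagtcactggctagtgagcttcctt
H4c18, chr13:21832178-21832307, minus strand: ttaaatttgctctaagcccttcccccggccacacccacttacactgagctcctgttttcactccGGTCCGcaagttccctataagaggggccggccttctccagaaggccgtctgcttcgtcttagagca
H2bc18, chr3:96269590-96269719, plus strand: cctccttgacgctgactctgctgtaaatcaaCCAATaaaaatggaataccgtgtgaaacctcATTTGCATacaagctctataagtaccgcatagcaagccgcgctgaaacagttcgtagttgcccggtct
H1f2, chr13:23738697-23738826, plus strand: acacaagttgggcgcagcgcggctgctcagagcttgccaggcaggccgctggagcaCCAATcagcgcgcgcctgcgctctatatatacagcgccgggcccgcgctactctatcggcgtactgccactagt
H2ac13, chr13:21716302-21716431, plus strand: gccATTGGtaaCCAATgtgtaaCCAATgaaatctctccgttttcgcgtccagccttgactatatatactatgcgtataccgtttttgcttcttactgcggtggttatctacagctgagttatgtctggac
H2bc13, chr13:21716164-21716293, minus strand: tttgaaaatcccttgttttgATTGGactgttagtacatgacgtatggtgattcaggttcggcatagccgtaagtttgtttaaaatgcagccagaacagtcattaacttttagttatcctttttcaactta

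All 5 H4 promoters printed above hold GGTCCG. Over the full 300 bases it was found in 9 of 10 H4 promoters (H4c1 lacks it) and in 8.39% of all 27025 promoters in the table. It begins at position -46 in H4c3 and H4c18 and -47 in H4c4, taking the annotated start as position 0, at -18 in H4c11 and at -5 in H4c8, so the annotated starts do not sit at a fixed distance from it. The octamer ATTTGCAT, a binding site of Oct-1 in H2B promoters, was found in 6 of 13 H2B and 6 of 13 H2A promoters, against 1.75% of all, and in 0 of 10 H4, 0 of 8 H3 and 0 of 8 H1 promoters. CCAAT was found in 13 of 13 H2A, 13 of 13 H2B, 8 of 8 H3 and 3 of 10 H4 promoters, against 37.9% of all. AAACACA was found in 4 of 8 H1 promoters, against 7.14% of all, and TATAAA in 28 of the 52 promoters, against 14.2%. No searched motif contains another, but the H2A and H2B windows of a divergent pair overlap, so these counts are not independent. A match describes letters only.

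Values are log2 intensities after quantile normalization of the 20 arrays to a common distribution, and a level of 1 gene is not comparable with that of another, since each probe set has its own brightness. Of the 57 genes, 46 lay in the brighter 50% of all genes. The highest mean of each class belonged to H1f2 (8.32), H2ac13 (10.09), H2bc4 (10.51), H3c6 (9.43) and H4c4 (10.67). The lowest belonged to H1f8 (3.45), H2ac21 (5.37), H2bc1 (3.88), H3c1 (2.83) and H4c9 (7.15). H3c1, an H3 gene, lay within the range of the array medians of 23 background probe sets, 2.56 to 3.28 before normalization. The most variable within groups were H2bc1 (pooled SD 0.511), a dim H2B gene first described in testis, H3c7 (0.446) and H3c8 (0.442), both H3 genes, and H2bc4 was the least variable (0.168).

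Several probe sets cannot be read as separate genes. H3c14 and H3c15 had identical values on all 20 arrays and are 1 measurement. H3c13 differed from them by 0.0345 on average, H3c10 from H3c11 by 0.0682 and H2bc12 from H2bc13 by 0.0920. H2ac11, H2ac12, H2ac13, H2ac22 and H2ac24 differed from each other by 0.0424 to 0.106. Coding sequences within a class are nearly identical, so that a probe set may also report other members of its class, and counts of genes below are counts of probe sets that are not independent.

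The histone genes went up and down together from lung to lung. Over the 1596 gene pairs, the median correlation of deviations from the group means was 0.70 across 20 arrays. Genes on the same array share its RNA input and normalization. The median within-group SD was 0.349 for the histone genes and 0.261 for all genes. On wild-type vehicle array 18 and on Marfan vehicle array 22, 54 of 57 genes lay above their own mean, and on arrays 16 and 21 the number was 50. On Marfan vehicle array 24 it was 1. Arrays 12 (4 genes), 6 (5), 20 (6) and 11 (7) were the next lowest. The median level of the 57 genes ran from 7.86 on array 20 to 9.04 on array 18, both vehicle arrays, and Marfan vehicle held both high arrays (21, 22) and low ones (20, 23, 24).

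**Figure D1:**
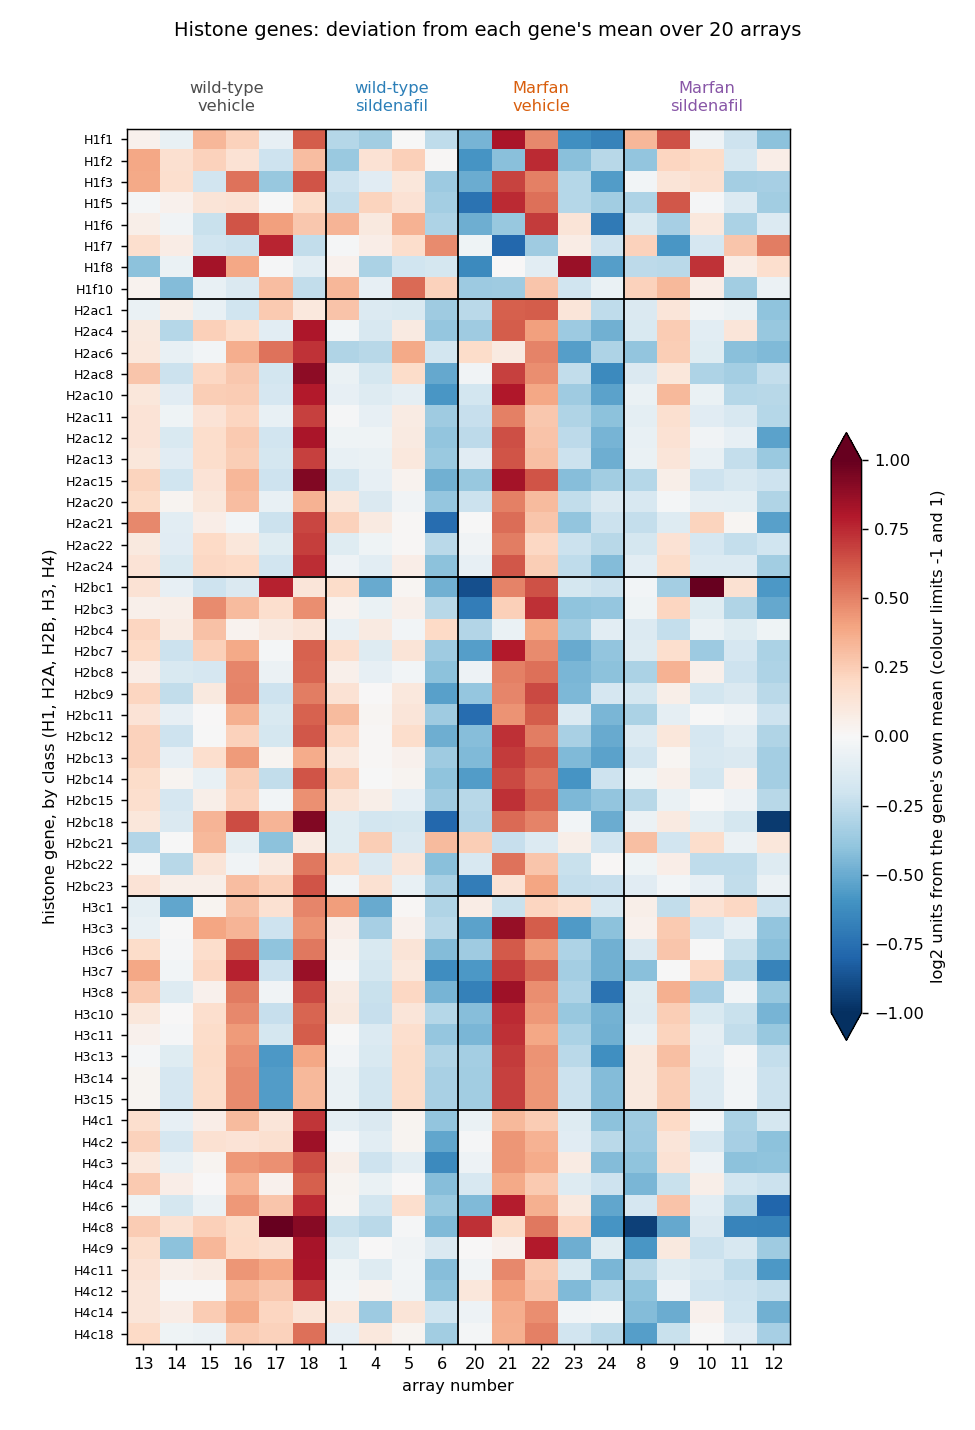
Deviation of each of the 57 histone genes (rows, by class) from its own mean over 20 arrays, in log2 units, with arrays (columns) in their 4 groups. Columns are mostly red (16, 18, 21 and 22, with 50 to 54 of 57 genes above their mean) or blue (24, with 1). On each sildenafil array 0 to 6 of the 11 H4 genes lie above their mean (6 on array 5). On the vehicle arrays the range is 0 (array 24) to 11, so the ranges overlap.

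Genes followed this common pattern to different degrees. The correlation with the median deviation of the other histone genes, over 20 arrays, was 0.98 for H2ac11 and H2bc12 and 0.97 for H3c11. It was taken on deviations from the group means, so group differences do not enter it. It was -0.71 for H1f7, -0.27 for H2bc21, 0.05 for H1f8, 0.17 for H1f10, 0.31 for H3c1, 0.32 for H2bc4 and 0.33 for H4c8. H1f7, H1f8 and H1f10 are the 3 genes outside the clusters. H2bc4, H2bc21, H2bc22, H2bc23 and H1f8 are the 5 genes whose RefSeq models are longer than 2000 bases. Their SDs ran from 0.168 (H2bc4) to 0.441 (H1f8), with a median of 0.257, against 0.352 for the other 52. Of these 5, H2bc22 and H2bc23 followed the common pattern, with correlations of 0.82 and 0.79. The 7 pairs of an H2A and an H2B gene that lie head to head, with starts 164 to 281 bases apart, had correlations from 0.64 (H2ac1 and H2bc1) to 0.93 (H2ac12 and H2bc12) over 20 arrays. These pair correlations used deviations from each gene's own mean over all arrays, so unlike those above they include group differences.

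Before normalization, arrays of the wild-type vehicle group were the dimmest, with deposited medians of 5.66 ± 0.19 (SD, n = 6) against 6.05 ± 0.14 (n = 4) in wild-type sildenafil, 6.03 ± 0.13 (n = 5) in Marfan vehicle and 6.06 ± 0.28 (n = 5) in Marfan sildenafil. Array 18, the highest for histone genes, was the dimmest of all at 5.32. Marfan sildenafil array 9 stands apart from the other arrays over all genes, and values that it moves are given without it as well. Of 10 lung-defining genes such as Sftpc, 9 were measured, and their list medians per array ran from 11.55 to 12.36.

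Across all 19505 genes, limma found 0 genes, and so 0 of the 57 histone genes, at an adjusted p under 0.05 in any of the 7 comparisons (0% of all genes, Benjamini-Hochberg over all genes). Everything that follows is below that threshold, and counts of histone genes at an unadjusted p under 0.05 are set beside the share of all genes in the same fit.

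Sildenafil against vehicle, averaged over the genotypes, gave the lowest adjusted p of any histone gene. The question was whether lungs of drug-treated mice differ from those of vehicle-treated mice when each genotype counts equally. Of the 57 histone genes, 53 had a difference below 0, against 51% of all genes, with a median of -0.18 log2 units (all genes -0.00). By class, the medians were -0.29 for H4, -0.21 for H2A, -0.18 for H2B, -0.17 for H3 and -0.04 for H1. At an unadjusted p under 0.05, 13 were lower (22.8%, against 5.73% of all genes): 10 of the 11 H4 genes (all but H4c6), H2ac20, H2bc18 and H3c7. H1f10 was the only one higher (1.75%, against 5.17%). The 57 genes vary together, so these shares do not count independent genes.

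**Figure D2:**
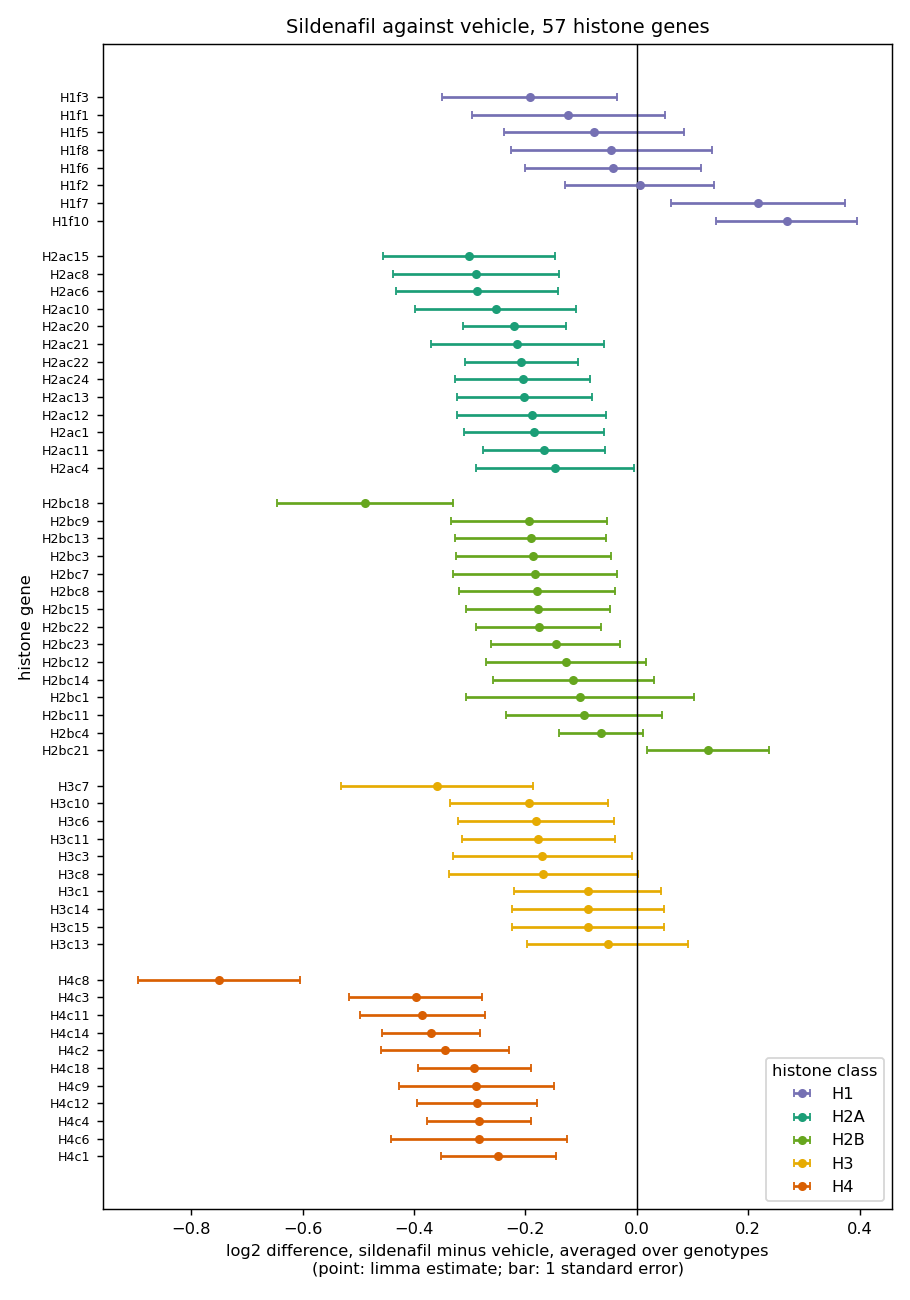
Log2 difference between sildenafil and vehicle, averaged over the genotypes, for each histone gene (point: limma estimate, bar: 1 standard error), grouped by class. All 11 H4 genes lie between -0.75 and -0.25, further to the left than most genes of the other classes. To the right of 0 lie 4 genes: H1f10, H1f7, H2bc21 of the chromosome 3 cluster (0.13) and H1f2 (0.01).

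H4c8, an H4 gene of the chromosome 13 cluster, had the largest difference. Its values were 8.59, 8.49, 8.57, 8.53, 9.38 and 9.25 in wild-type vehicle lungs (mean 8.80 ± 0.40 SD, n = 6) and 8.12, 8.07, 8.32 and 7.90 in wild-type sildenafil lungs (8.10 ± 0.17, n = 4). In Marfan lungs they were 9.06, 8.53, 8.86, 8.55 and 7.75 with vehicle (8.55 ± 0.50, n = 5) and 7.40, 7.82, 8.19, 7.68 and 7.67 with sildenafil (7.75 ± 0.29, n = 5). In all, 10 of 11 vehicle lungs lay above every sildenafil lung, and the exception was Marfan vehicle array 24, on which 1 of the 57 genes lay above its own mean. The averaged difference was -0.75 ± 0.15 (SE), with a limma adjusted p = 0.0935. That is the lowest adjusted p of any gene in this comparison, and the adjustment gives other genes the same value. Of all 19505 genes, H4c8 ranked 5 by p. The difference was -0.70 ± 0.21 in wild-type lungs (adjusted p = 0.361) and -0.80 ± 0.20 in Marfan lungs (adjusted p = 0.677), and the interaction, the gap between them, was -0.10 ± 0.29 (adjusted p = 0.986).

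H4c8 crossed the threshold on leaving out any of 3 arrays: Marfan vehicle array 24 (-0.85, limma adjusted p = 0.0136), Marfan sildenafil array 9 (-0.76, adjusted p = 0.0308) or Marfan sildenafil array 10 (-0.80, adjusted p = 0.0427). It also did with array weights, which give noisier arrays less influence (-0.66, adjusted p = 0.0275). Other genes passed in such fits too: 74 of all genes did without array 9 and 68 with array weights. The counts without arrays 24 and 10 are given in the last section. With the deposited median of each array as a covariate (the brightness covariate) it stood at -0.52 (adjusted p = 0.437). Over its 27 alternatives the difference ran from -0.85 to -0.52 and the adjusted p from 0.0136 to 0.437.

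H4c8 differed from the other histone genes on several arrays. On wild-type vehicle array 17 it lay 1.04 above its own mean while the median deviation of the other 56 was -0.05, and on Marfan vehicle array 20 it lay 0.73 above while the others stood at -0.32. On Marfan sildenafil array 9 the others stood at 0.12 and H4c8 at -0.51. The 9 sildenafil lungs lay between -0.93 and -0.02 for H4c8, all below its mean, whereas the other genes ranged from -0.36 to 0.12 there and from -0.41 to 0.59 in the vehicle lungs.

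**Figure D3:**
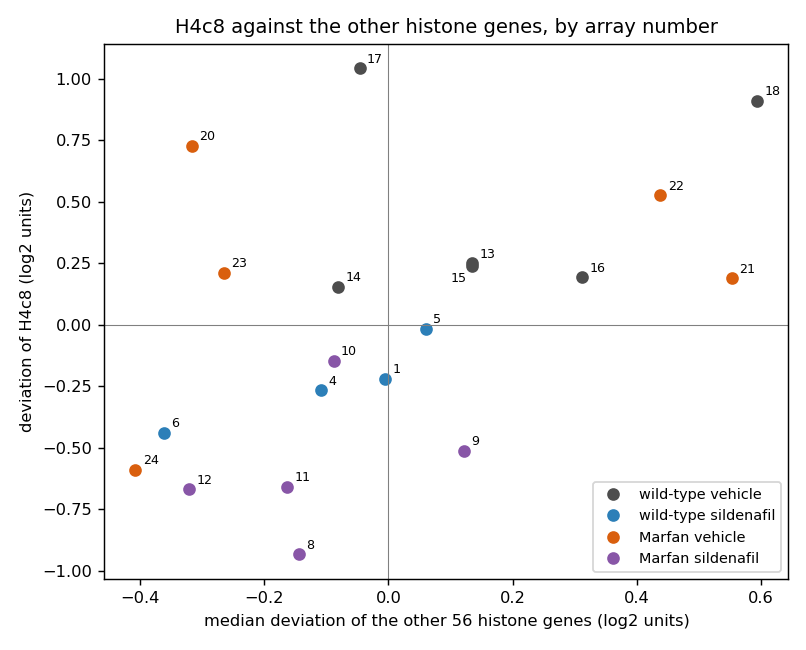
Deviation of H4c8 from its mean (vertical axis, log2 units) against the median deviation of the other 56 histone genes (horizontal axis, log2 units), 1 point per array, coloured by group and labelled with the array number. All 9 sildenafil points lie below 0 on the vertical axis and 10 of 11 vehicle points above it. Horizontally the sildenafil points run from -0.36 to 0.12 and the vehicle points from -0.41 to 0.59, with arrays 16, 18, 21 and 22 to the right of every sildenafil point.

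The other H4 genes had smaller differences in the same direction. H4c14, the H4 gene of the chromosome 3 cluster, had values of 10.45, 10.40, 10.58, 10.70, 10.54 and 10.45 in wild-type vehicle lungs and 10.43, 9.96, 10.45 and 10.12 in wild-type sildenafil lungs. In Marfan lungs it had 10.27, 10.69, 10.79, 10.30 and 10.31 with vehicle and 9.89, 9.83, 10.37, 10.12 and 9.84 with sildenafil. Of the 9 sildenafil lungs, 6 lay below every vehicle lung. The averaged difference was -0.37 ± 0.09 (limma adjusted p = 0.116), and without Marfan sildenafil array 10 it was -0.41 (adjusted p = 0.0486), past the threshold. With the brightness covariate it was -0.40 (adjusted p = 0.436).

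H4c11 stood at -0.39 ± 0.11 (limma adjusted p = 0.187). Its values were 8.03, 7.94, 7.97, 8.33, 8.27 and 8.71 in wild-type vehicle, 7.85, 7.76, 7.86 and 7.46 in wild-type sildenafil, 7.86, 8.37, 8.15, 7.74 and 7.43 in Marfan vehicle and 7.61, 7.76, 7.73, 7.64 and 7.31 in Marfan sildenafil lungs. The wild-type groups did not overlap, and the Marfan groups did. H4c3 stood at -0.40 ± 0.12 (adjusted p = 0.193), with group means of 9.15 ± 0.29 (SD, n = 6), 8.66 ± 0.30 (n = 4), 8.96 ± 0.35 (n = 5) and 8.66 ± 0.26 (n = 5) in the same order, and the groups overlapped in both genotypes. H4c4, the brightest H4 gene, had means of 10.89 ± 0.23 (SD, n = 6) with vehicle and 10.56 ± 0.21 (n = 4) with sildenafil in wild-type and of 10.70 ± 0.27 (n = 5) and 10.47 ± 0.18 (n = 5) in Marfan lungs, an averaged difference of -0.28 ± 0.09 (adjusted p = 0.239). H4c1 had the smallest averaged difference of the class, -0.25 ± 0.10 (limma adjusted p = 0.366).

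Outside H4, H2bc18, an H2B gene of the chromosome 3 cluster, had the smallest p. Its values were 7.39, 7.13, 7.61, 7.92, 7.61 and 8.20 in wild-type vehicle and 7.15, 7.09, 7.10 and 6.49 in wild-type sildenafil lungs. In Marfan lungs it had 6.98, 7.84, 7.77, 7.25 and 6.78 with vehicle and 7.22, 7.36, 7.18, 7.10 and 6.32 with sildenafil. The averaged difference was -0.49 ± 0.16 (limma adjusted p = 0.228). It was -0.69 ± 0.23 in wild-type and -0.29 in Marfan lungs, and the interaction was 0.40 ± 0.32 (adjusted p = 0.984), so a difference between genotypes was not shown. H1f10, the replication-independent linker histone, had the opposite sign: 4.97 ± 0.25 (SD, n = 6) with vehicle and 5.32 ± 0.27 (n = 4) with sildenafil in wild-type, and 4.92 ± 0.27 (n = 5) and 5.10 ± 0.26 (n = 5) in Marfan lungs, an averaged difference of 0.27 ± 0.13 (adjusted p = 0.439). Its groups overlapped.

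**Figure D4:**
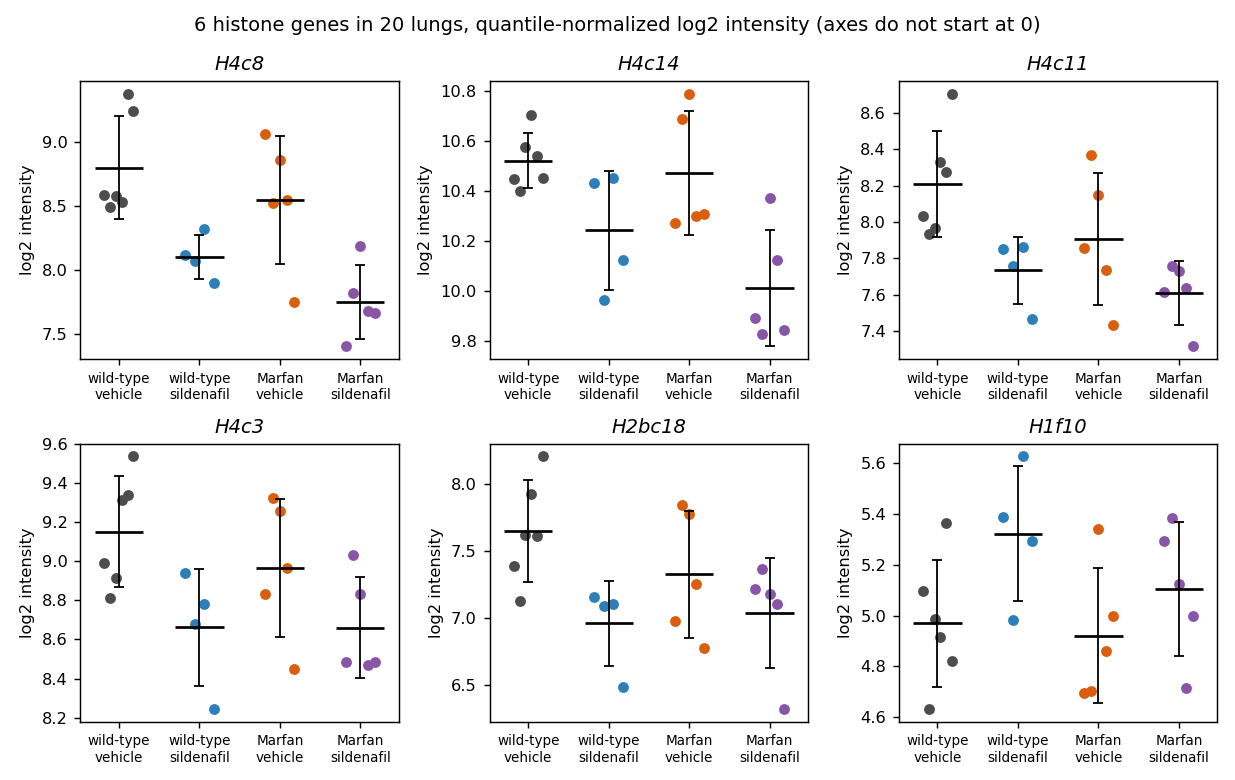
Quantile-normalized log2 intensity of 6 histone genes in each of the 20 lungs (points), with the mean (line) and SD (bar) of each group; axes differ between panels and do not start at 0. H4c8 shows 10 of 11 vehicle lungs above all sildenafil lungs, whereas the groups of the other genes overlap more. The H1f10 means are 5.32 and 5.10 with sildenafil against 4.97 and 4.92 with vehicle.

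How the arrays were scaled bears on these signs. On the deposited values the median of all genes itself stood at 0.16 for averaged sildenafil, and the wild-type vehicle arrays were the dimmest. There the median of the histone genes was 0.01 and 27 of 57 lay below 0, but 53 of 57 lay below the median of all genes, the same number as after quantile normalization. With arrays centred on their medians the histone median was -0.21 (all genes -0.06). With the brightness covariate it was -0.12 (all genes -0.01), 52 of 57 genes lay below 0, and 5 were lower (4.29% of all genes) and 1 higher (4.19%) at an unadjusted p under 0.05. Together these are 10.5% of the histone genes against 8.49% of all genes, a smaller gap than without the covariate. All 11 H4 genes lay below 0 under each of these 4 scalings. Without Marfan sildenafil array 9 the histone median was -0.22. The count at an unadjusted p under 0.05, 14 in both directions (24.6%, against 10.9% of all genes), was 9 (15.8%) without wild-type sildenafil array 6 (all genes 8.75%) or without Marfan vehicle array 21 (10.2%). It was 20 (35.1%) without Marfan sildenafil array 9 (all genes 13.1%) and 22 (38.6%) without Marfan vehicle array 24 (11.3%). On the deposited values it was 4, 1 lower and 3 higher, against 0.246% and 19.1% of all genes.

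Within wild-type lungs, sildenafil against vehicle gave 54 of 57 histone genes below 0 (50.4% of all genes) and a median of -0.27. At an unadjusted p under 0.05, 9 genes were lower (15.8%, against 4.45%): H2bc18 and the H4 genes H4c1, H4c2, H4c3, H4c4, H4c8, H4c11, H4c12 and H4c14. The groups did not overlap for H4c8, H4c11 and H2bc3 (3 genes, 5.26%, against 1.3% of all genes in this direction). H2bc3, an H2B gene, had 6.91 to 7.33 with vehicle and 6.58 to 6.91 with sildenafil, a difference of -0.32 ± 0.20 (limma adjusted p = 0.654). All 13 H2A, all 10 H3 and all 11 H4 genes lay below 0, with medians of -0.27, -0.26 and -0.34. On the deposited values the histone median was 0.04, with all genes at 0.28, and with the brightness covariate it was -0.12. Of the H4 genes, 9 lay below 0 on the deposited values and 10 with the brightness covariate. The count of 9 lower genes became 3 without wild-type sildenafil array 6 (3.15% of all genes) and 5 without wild-type vehicle array 18 (3.24%), and 19 with only the wild-type groups in the fit (5.23%). With the brightness covariate 1 gene was lower (H4c14 at -0.34, against 3.01% of all genes) and 1 higher (H1f10, against 2.5%), and H4c8 stood at -0.27.

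Within Marfan lungs, the histone median was -0.12 and 48 of 57 genes lay below 0 (51.6% of all genes). At an unadjusted p under 0.05, 3 were lower (5.26%, against 3.41%), all of them H4: H4c8, H4c14 (-0.46 ± 0.12, limma adjusted p = 0.677) and H4c18 (-0.32 ± 0.14, adjusted p = 0.725). H4c18 had 10.21, 10.59, 10.73, 10.04 and 9.96 with vehicle and 9.68, 10.01, 10.23, 10.12 and 9.90 with sildenafil, with overlap. H4c2 stood at -0.31 ± 0.16 (adjusted p = 0.759). All 11 H4 genes and all 13 H2A genes lay below 0, with medians of -0.30 and -0.16. Of the 8 H1 genes, 5 lay above 0, and the class median was 0.16. These 5 include H1f7, H1f8 and H1f10 (0.17 to 0.32), which lie outside the clusters. Of the clustered H1 genes, H1f1 and H1f2 lay above 0 and H1f3, H1f5 and H1f6 below. The H3 median was -0.05. The whole-list median moved with single arrays: it was 0.02 without Marfan vehicle array 21, 0.00 without array 22, -0.06 without Marfan sildenafil array 12, -0.19 without Marfan sildenafil array 9 and -0.22 without Marfan vehicle array 24. The count of 3 lower genes became 6, with 1 higher, without array 9 (3.43% of all genes in each direction) and 7 lower without array 24 (3.77%). It was 5 without array 23 (2.95%) or wild-type vehicle array 18 (3.6%). With the brightness covariate H4c8 stood at -0.77.

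The interaction asked whether the drug difference depends on genotype. By limma, 0 histone genes passed the adjusted threshold and 0 had an unadjusted p under 0.05, against 4.47% of all genes. The median was 0.12 with 49 of 57 genes above 0, against 49.6% of all genes, and -0.10 on the deposited values, where all genes stood at -0.24. The smallest p belonged to H1f1, an H1 gene, at 0.55 ± 0.35 (adjusted p = 0.984): it averaged 6.50 ± 0.27 (SD, n = 6) with vehicle and 6.10 ± 0.15 (n = 4) with sildenafil in wild-type, and 6.23 ± 0.69 (n = 5) and 6.38 ± 0.42 (n = 5) in Marfan lungs. H1f8 stood at 0.44 ± 0.36, H1f2 at 0.34 ± 0.27 and H2bc23 at 0.33 ± 0.23, all at adjusted p = 0.984.

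Marfan against wild-type lungs under vehicle addressed the disease without drug. Of the 57 genes, 54 lay below 0 (51.2% of all genes), with a median of -0.17, and all 8 H1, all 10 H3 and all 11 H4 genes did. A total of 2 were lower at an unadjusted p under 0.05 (3.51%, against 2.78%), both H2B genes. H2bc23 had 6.50, 6.42, 6.43, 6.67, 6.60 and 6.99 in wild-type and 5.67, 6.51, 6.76, 6.13 and 6.13 in Marfan lungs, a difference of -0.36 ± 0.15 (limma adjusted p = 0.789), with overlap. H2bc4, the brightest H2B gene, had 10.72, 10.59, 10.80, 10.54, 10.60 and 10.63 against 10.21, 10.44, 10.89, 10.16 and 10.40, a difference of -0.22 ± 0.10 (adjusted p = 0.789). Array 22 was the highest of all 11 for H2bc4 and the other 4 Marfan lungs were the lowest.

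H1f2, the brightest H1 gene, showed the same array: it had 7.74, 7.91, 9.06, 7.90 and 8.04 in Marfan and 8.71, 8.48, 8.55, 8.47, 8.11 and 8.63 in wild-type vehicle lungs. Its difference of -0.36 ± 0.18 (limma adjusted p = 0.790) became -0.60 without array 22. H4c11 stood at -0.30 ± 0.15 (adjusted p = 0.790) and H2bc3 at -0.36 ± 0.19 (adjusted p = 0.794). The list median was -0.29 without Marfan vehicle array 21, -0.28 without array 22, -0.10 without array 20, -0.11 without array 23, -0.07 without array 24 and -0.08 without wild-type vehicle array 18. The count of 2 lower genes was 17 without array 21 (3.14% of all genes) and 10 without array 22 (3.12%), and 0 without any of arrays 20, 23 and 24 (2.71%, 2.66% and 2.77%). With arrays centred on their medians it was 8, or 14%, against 14.7% of all genes. On the deposited values the median was 0.10 with all genes at 0.25, and 51 of 57 genes lay below the median of all genes. With the brightness covariate the median was -0.03, 36 of 57 genes lay below 0, and 3 of the 11 H4 genes did, so the direction of that class did not hold there. On the deposited values 3 of 11 H4 genes lay below 0 and 11 of 11 below the median of all genes.

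Under sildenafil, the median difference between Marfan and wild-type lungs was -0.02, 39 of 57 genes lay below 0 (51.3% of all genes) and 0 genes reached an unadjusted p under 0.05 (3.89% of all genes). The smallest p-values were those of H4c14 (-0.23 ± 0.13), H4c8 (-0.35 ± 0.22), H2bc4 (-0.17 ± 0.11), H1f6 (-0.28 ± 0.23) and H1f10 (-0.22 ± 0.19), each with a limma adjusted p = 1.00. Without array 9 the median was -0.09 and 46 genes lay below 0. Averaged over treatment, Marfan lungs had 48 of 57 genes below 0 (51.8% of all genes), with a median of -0.10. At an unadjusted p under 0.05, 2 were lower (3.51%, against 2.55%): H2bc4 at -0.20 ± 0.08 and H4c8 at -0.30 ± 0.15, both at adjusted p = 0.918. H1f6, a dim testis H1 gene, stood at -0.31 ± 0.16. With the brightness covariate H4c8 stood at -0.09. These averages share their samples with the comparisons above.

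The genes around the histone genes were taken from lists for the steps a histone passes through, and 0 of their members passed over all genes in any comparison. For averaged sildenafil, the counts at an unadjusted p under 0.05 below compare with 5.73% of all genes lower and 5.17% higher. Replication-independent variants, most of them made outside DNA replication from mRNAs with poly(A) tails, were measured in 9 of 9 genes. Their median was -0.08 for averaged sildenafil, with 3 lower and 2 higher at an unadjusted p under 0.05. H2az2, an H2A.Z gene, stood at -0.26 ± 0.07 (limma adjusted p = 0.168), with 8.04 ± 0.15 (SD, n = 6), 7.79 ± 0.15 (n = 4), 7.92 ± 0.14 (n = 5) and 7.64 ± 0.08 (n = 5) in wild-type lungs without and with drug and in Marfan lungs without and with drug. Macroh2a2 stood at 0.47 ± 0.14 in wild-type lungs under sildenafil (adjusted p = 0.366). Factors of histone gene transcription and 3′ end processing were measured in 20 of 22 genes, with a median of -0.10, 14 of them below 0 and 3 lower and 1 higher at an unadjusted p. Hinfp, the factor that binds the H4 site II element, stood at 0.48 ± 0.14 in Marfan against wild-type vehicle lungs (adjusted p = 0.776), where the groups did not overlap (0.261% of all genes in this direction). Sympk, a scaffold of 3′ end processing, stood at 0.29 ± 0.10 in wild-type lungs under sildenafil (adjusted p = 0.390). Slbp, the stem-loop binding protein, averaged 7.94 ± 0.25 (n = 6), 7.86 ± 0.14 (n = 4), 8.03 ± 0.21 (n = 5) and 7.79 ± 0.20 (n = 5) in the same order of groups.

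Chaperones, which carry histones to DNA, were measured in 21 of 22 genes and had a median of 0.01 for averaged sildenafil, with 2 lower and 1 higher at an unadjusted p under 0.05. Rbbp4, a subunit of the replication-coupled assembly factor CAF-1, stood at -0.25 ± 0.06 (limma adjusted p = 0.153) and Dnajc9, a histone H3 and H4 co-chaperone, at -0.21 ± 0.08 (adjusted p = 0.309). DNA replication genes, whose products act in the phase in which histone genes are transcribed, were measured in 31 of 33 and had a median of 0.04, with 2 higher and 1 lower. Without array 9 their median was -0.01, with 15 of 31 above 0 and 1 higher and 1 lower at an unadjusted p under 0.05. The chaperone median without that array was -0.004. Fen1, the flap endonuclease, stood at 0.50 ± 0.17 (adjusted p = 0.262), and E2f1, an S-phase transcription factor, at 0.42 ± 0.15 in Marfan against wild-type lungs (adjusted p = 0.918). Of the mitosis genes, 17 of 18 measured lay above 0 under averaged sildenafil (19 listed, against 49% of all genes), with a median of 0.22, and 3 were higher at an unadjusted p. Mki67, the Ki-67 proliferation antigen, stood at 0.59 ± 0.18 (adjusted p = 0.187). It had 6.04, 6.04, 6.52, 6.64, 6.04 and 6.03 in wild-type vehicle, 6.40, 6.95, 6.59 and 7.05 in wild-type sildenafil, 6.47, 6.32, 6.36, 6.65 and 6.03 in Marfan vehicle and 7.64, 7.85, 6.05, 7.08 and 6.50 in Marfan sildenafil lungs. Arrays 8 and 9 were the highest, and without array 9 the difference was 0.49 ± 0.15 (adjusted p = 0.136), with a list median of 0.16 and 13 of 18 genes above 0. The list median per array ran from 4.40 to 5.10 and from 4.88 to 5.16 in wild-type lungs without and with drug, and from 4.80 to 5.09 and from 4.85 to 5.79 in Marfan lungs. The part of dividing cells in the histone differences was not tested. Nusap1, a spindle protein, stood at -0.43 ± 0.11 in Marfan against wild-type lungs averaged over treatment (adjusted p = 0.673).

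Of 6 listed RNAs that lack a poly(A) tail and are not histone mRNAs, Rmrp, the RNA of a ribonucleoprotein that processes ribosomal RNA, was the only one measured. It had 12.14, 12.02, 12.11, 12.11, 12.14 and 12.29 in wild-type vehicle, 11.91, 11.77, 12.02 and 11.76 in wild-type sildenafil, 12.09, 11.99, 12.03, 12.11 and 11.97 in Marfan vehicle and 11.81, 11.75, 11.91, 11.73 and 11.75 in Marfan sildenafil lungs. Of 11 vehicle lungs 8 lay above all 9 sildenafil lungs, and 8 of 9 sildenafil lungs lay below all vehicle lungs. Its averaged sildenafil difference was -0.26 ± 0.05 with a limma adjusted p = 0.0935. H4c8 has the same adjusted p because the adjustment ties genes of different p. The unadjusted limma p was 7.1e-05 for Rmrp and 2.6e-05 for H4c8. Without array 9 it was -0.25 (adjusted p = 0.0343), past the threshold, as was H4c8. What Rmrp and the H4 genes share across these arrays was not tested.

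Markers of other cell types were read beside the sildenafil differences, and the part of cell composition in the histone differences was not tested. For averaged sildenafil the medians were 0.07 for 8 endothelial genes, -0.03 for 10 of 12 lymphocyte genes, -0.02 for 8 of 9 alveolar macrophage genes, -0.09 for 7 of 8 neutrophil genes, -0.40 for 2 of 6 erythroid genes, -0.21 for 8 cardiac and -0.01 for 6 skeletal muscle genes, and 0.00 for 9 of 10 lung-defining genes. Without Marfan sildenafil array 9 the endothelial median was 0.18, the alveolar macrophage median -0.18, the erythroid median -0.28 and the cardiac median 0.15. The lymphocyte and skeletal muscle medians were then both 0.03.

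The averaged endothelial value joins medians of opposite sign within the genotypes. In wild-type lungs the endothelial median was 0.34 under sildenafil, with 8 of 8 genes above 0 and 4 higher at an unadjusted p under 0.05 (4.65% of all genes were), beside the histone median of -0.27. In Marfan lungs it was -0.23 with 0 of 8 above 0, and without array 9 it was 0.06 with 6 of 8 above 0. The interaction median was -0.51, and -0.25 without array 9. The cardiac median in Marfan lungs turned from -0.23 to 0.33 without array 9. That array had a cardiac list level of 5.23, against 8.33 to 9.30 on the other 4 arrays of its group, an endothelial level of 9.01 against 10.29 to 10.43, and an erythroid level of 6.42 against 7.24 to 7.93.

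Alas2, the erythroid heme synthesis enzyme, stood at -1.10 ± 0.29 in Marfan lungs under sildenafil (limma adjusted p = 0.677) and at -0.78 ± 0.22 without array 9 (adjusted p = 0.590), beside the H4 differences there. The median of the 2 erythroid genes ran from 7.53 to 9.00 and from 7.94 to 9.23 in wild-type lungs without and with drug, and from 7.40 to 8.68 and from 6.42 to 7.93 in Marfan lungs. The cardiac muscle median ran from 8.51 to 9.13, 7.92 to 8.92, 7.88 to 8.64 and 5.23 to 9.30 in the same order.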

How the data were processed

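The measurements are RMA values on a log2 scale that the authors deposited, made with Affymetrix Expression Console per the submitters' processing notes (versions and genome build not given in the sources used here), from 700 pg of total RNA per lung amplified with a Pico kit per the labels. Of 24 columns of per-sample values, 4 from arrays titled as failing quality control were empty and were not used. The deposited medians differed between arrays, so the 22206 transcript probe sets were quantile-normalized over the 20 arrays (limma 3.58.1, R 4.3.3). For a gene with several probe sets the brightest on average was kept. Gene symbols came from the platform annotation.

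Group means were fitted together with limma (lmFit, contrasts.fit, eBayes with a variance trend, 16 residual degrees of freedom), two-sided, adjusted by Benjamini-Hochberg over 19505 genes at a threshold of 0.05, in 7 comparisons. On simulated data for Marfan against wild-type under vehicle, with 200 of 19505 genes changed, 25.4% of genes shifted by 0.5 (log2) were called, 91.0% of those shifted by 1 and 98.5% of those shifted by 2. Precision is limited by how few arrays each group has: histone genes had a median standard error of 0.187 in that comparison.

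The members, the supporting lists and the tests were chosen with earlier results of these data known. Named with values are, per comparison, the 5 members with the smallest unadjusted p, the brightest and dimmest member of each class, the 3 with the largest SD, up to 2 genes of each supporting list and any member past the threshold. Others were named after their values were seen: those at an unadjusted p under 0.05 or without overlap, those with nearly equal values, those closest to or furthest from the common pattern, those with long gene models or a neighbour that starts head to head, H4c1, H4c6, Slbp and Sftpc. Alternatives were other scalings, all probe sets of a gene, brighter genes only, brightness or Y-linked level as a covariate, array weights, only the groups compared, and leaving out each array. Promoters came from a RefSeq table (GRCm38.p6), used for its sequences and their positions, since the build of the arrays is not stated. The gene mutated in Marfan syndrome is not reported here.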

Additional observations from a re-analysis of the deposited data

Results flagged for a closer look

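Dixon's test for a sample far from the others of its group was run on 30 measures in 120 groups of 4 to 6 arrays, and it marked 4, where chance alone marks about 1 group in 20. In Marfan vehicle lungs, H1f2 stood at 9.06 on array 22, with the other 4 between 7.74 and 8.04. In wild-type vehicle lungs, the dim H2bc1 stood at 4.65 on array 17, with the others between 3.67 and 4.02. H2bc18 was marked in both sildenafil groups: it stood at 6.49 on wild-type array 6, with the others between 7.09 and 7.15, and at 6.32 on Marfan array 12, with the others between 7.10 and 7.36. Arrays 6 and 12 were also low for most other histone genes (5 and 4 of 57 above their own mean).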

How the results depend on the processing

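No histone gene passed the adjusted threshold under any alternative in 6 of the 7 comparisons. For averaged sildenafil the count of 0 became 1 with array weights, and leaving out 1 array gave 0 to 2 (1 without Marfan sildenafil array 9 or Marfan vehicle array 24, 2 without Marfan sildenafil array 10). Over all genes the count was 68 with array weights, and 74, 1 and 25 without arrays 9, 24 and 10. The medians of the list stayed within the spread between arrays of a group (SD 0.313) of the reported values. That spread is one of single arrays, not the error of a difference between group means, and it is larger than each of the 7 reported medians in size. It is thus a wide tolerance: a median can reach or cross 0 and still lie within it. Signs changed on the deposited values for 5 of the 7 medians, all but those of the drug in Marfan lungs and of genotype under sildenafil, whose signs changed on leaving out single arrays. H2bc23 changed sign on the deposited values, at 0.00992 in Marfan against wild-type vehicle lungs (all genes 0.25) and -0.0468 for the interaction (all genes -0.24). The cause was not tested beyond that shift of all genes. No paired analysis was possible because the running numbers of the arrays are not shared between groups. Dim genes such as H3c1 and H1f8 lay close to the background probe sets, which limits what their differences show.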
